A study of Homo sapiens with 18 samples.

Results

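FGF2, the basic fibroblast growth factor, and its cell-surface receptors FGFR1, FGFR2, FGFR3 and FGFR4 were followed through all 18 libraries of the series. The 5 genes were taken from the table of read counts by matching its Ensembl identifiers to these symbols, and they are 5 of the 61860 genes in that table. All 5 passed the filter on low counts, which left 16760 genes.

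The series measured polyadenylated RNA in H1 cells, an established line of human embryonic stem cells, while transcription was blocked with actinomycin D, and its title asks how transcript half-lives relate to N4-acetylcytidine, the mark that the enzyme NAT10 writes on RNA. Control cells carried a negative control shRNA and knockdown cells an shRNA against NAT10. Each genotype was sampled at 0, 1.5 and 3.5 h of the block with 3 libraries per genotype and time. Both genotypes were infected with a lentivirus that also carries GFP, sorted for GFP, grown in TeSR-E8 medium under puromycin, and are described as H1 cells kept on Matrigel. The labels do not give the shRNA sequence or say whether a line is 1 clone, so an action of the shRNA on other transcripts cannot be told apart from the lowering of NAT10. No label tells whether replicate libraries are separate cultures, and the p-values therefore speak only of how these libraries spread, which may be technical.

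The identifiers and places of the genes are as follows on GRCh38. FGF2 (ENSG00000138685) lies at chr4:122826708-122898236 on the plus strand, with 3 separate exonic blocks. FGFR1 (ENSG00000077782) lies at chr8:38400215-38468834 on the minus strand and FGFR2 (ENSG00000066468) at chr10:121478334-121598458, also on the minus strand. FGFR3 (ENSG00000068078) lies at chr4:1793293-1808872 and FGFR4 (ENSG00000160867) at chr5:177086886-177098144, both on the plus strand. The antisense gene NUDT6 shares 804 exonic bases with FGF2, 11.9% of the exonic length of FGF2. Whether counting used strand is not given in the sources used here, and reads from that stretch cannot be assigned with certainty. NUDT6 held 18 to 41 counts per library against at least 402 for FGF2. These counts do not tell how reads from the shared stretch were treated, so they cannot bound its effect. FGFR1 shares 138 exonic bases with LETM2 and 156 with an antisense gene, about 1% of its exonic length each.

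FGF2 is a secreted ligand that binds heparan sulphate on the cell surface and brings receptor molecules together. FGFR1 to FGFR4 are receptor tyrosine kinases, which then phosphorylate adaptors such as FRS2 and switch on the RAS to ERK cascade, the PI3K to AKT branch and phospholipase C gamma. Human embryonic stem cells depend on FGF signalling to stay undifferentiated, and TeSR-E8 supplies FGF2 as a protein, so the transcript counted here is the cells' own and not the ligand in the medium. No protein was measured.

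Because the series concerns transcript loss, the stretches of 3′ untranslated region richest in the pentamer ATTTA, the core of AU-rich elements that speed the decay of many growth factor transcripts, are printed for the 3 members that were lost fastest in control cells. Each is the 30-base window with most copies in the longest complete protein-coding transcript of GENCODE v29, read 5′ to 3′ on the transcript's strand, with ATTTA in capitals.
FGF2 3′UTR, chr4:122894647-122894676 (plus strand): tgttattaaATTTAttATTTAagatggtag
FGFR2 3′UTR, chr10:121479185-121479214 (minus strand): atcATTTAtagttttttttgtaATTTAagt
FGFR3 3′UTR, chr4:1808102-1808131 (plus strand): atttgtaaagctATTTAtgggcccctggca

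The whole 3′UTR of FGF2 held 18 copies of ATTTA in 5840 bases, 3.08 per kb against a median of 2.24 per kb among 1005 untranslated regions of like length, of which 27.2% held at least as many. FGFR2 held 9 copies in 1523 bases, 5.91 per kb against a median of 1.74, and 5.16% of 2676 regions of like length held at least as many. FGFR3 with 4 copies in 3087 bases and FGFR1 with 5 in 4008 bases stood below the medians for their lengths, and FGFR4 held none in 468 bases. The longer nonamer TTATTTATT was in none of these 5 regions. A match describes the letters and is not a measured binding site.

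The 300 bases around the start sites of FGF2 and FGFR3, the pair that stood higher in knockdown cells at every time relative to the typical transcript, are given from RefSeq on GRCh38.p14 (250 bases before and 50 after the start) with each GC box, GGGCGG or its complement CCGCCC, in capitals.
FGF2 promoter, chr4:122826581-122826880 (plus strand): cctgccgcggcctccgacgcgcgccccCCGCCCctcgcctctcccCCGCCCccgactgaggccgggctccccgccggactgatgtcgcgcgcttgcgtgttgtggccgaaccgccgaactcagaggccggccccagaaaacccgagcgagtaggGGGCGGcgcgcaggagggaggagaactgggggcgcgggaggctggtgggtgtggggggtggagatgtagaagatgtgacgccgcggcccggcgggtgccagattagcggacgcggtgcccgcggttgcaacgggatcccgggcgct
FGFR3 promoter, chr4:1793043-1793342 (plus strand): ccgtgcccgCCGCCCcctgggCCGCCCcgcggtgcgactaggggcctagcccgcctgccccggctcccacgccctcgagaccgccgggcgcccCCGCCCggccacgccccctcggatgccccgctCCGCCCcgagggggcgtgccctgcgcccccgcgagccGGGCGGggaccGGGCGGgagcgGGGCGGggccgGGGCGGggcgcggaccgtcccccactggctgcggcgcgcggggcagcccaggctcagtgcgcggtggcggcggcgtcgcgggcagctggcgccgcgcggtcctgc

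The FGF2 window held 3 GC boxes and the FGFR3 window 8, while 44.95% of 35116 promoter windows of the same length held at least 1. Both windows were rich in G and C (74.7% and 86.3%, against a median of 58.7% over all windows). Neither held the AP-1 motif TGACTCA, the motif TATAAA or the E-box CACGTG on either strand. The windows at the first start sites of FGFR2 and FGFR4, which stood lower in knockdown cells at 0 h, also held 5 and 7 GC boxes. GC boxes were thus present in first windows of genes of both directions, and their part in the levels was not tested. Windows at later start sites held 0 or 1 GC box for FGFR2 and 0 for FGFR4, and no window was available for FGFR1.

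The 18 libraries held 15037492 to 15519197 counts. NAT10 fell from 210 ± 1.13 to 21.9 ± 1.94 CPM at 0 h (SD, n = 3 each; CPM, counts scaled by TMM to a common library total, are used below), as the labels say it should. The stem cell markers POU5F1 (397 ± 14.2 CPM in control, 390 ± 30.7 in knockdown), SOX2 and NANOG were present at 0 h in both genotypes. The near-equal level of POU5F1 does not stand for its list, where 12 of 15 pluripotent stem cell markers were called lower in knockdown at 0 h and 0 higher. Replicate 1 of the knockdown at 0 h stood apart from its group: its counts differed from the other two libraries with a chi-square per degree of freedom of 15.1 and 21.6, against 2.13 between those, so each member's change at 0 h and each count over a list at 0 h is also given without it, where that differs. ERCC spike-in RNA made up 0.0857% to 0.544% of counts. It was added after RNA purification, so it follows polyadenylated RNA per purified RNA and not per cell. Neither the number of cells nor the RNA per cell can be read from it in such bulk samples. Counts of genes per ERCC count were lower in knockdown at 0 h (550 ± 101) than in control (970 ± 177).

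Before the block and with TMM scaling, FGF2 was the member that differed most between genotypes and the only one of the 5 with a change of more than 1 on the log2 scale. With ERCC scaling FGFR4 (-1.08), FGFR2 (-0.96) and FGFR1 (-0.94) differed more than FGF2 (0.74), while the median of all genes was -0.71. Relative to the typical transcript, FGF2 and FGFR3 rose on knockdown, while FGFR1, FGFR2 and FGFR4 fell. FGF2 stood at 104, 97.3 and 118 CPM in control and at 329, 254 and 248 CPM in knockdown. The groups did not overlap, and the highest knockdown value came from the library that stands apart. The log2 change was 1.38 ± 0.081 (approximate SE; 2.61-fold, adjusted p = 1.54e-12, edgeR's quasi-likelihood test with Benjamini-Hochberg adjustment over all genes), and 1.23 ± 0.055 without that library. At an adjusted p under 0.05, the threshold for a call throughout, 23.8% of all genes tested were called higher and 28.3% lower at 0 h (52.1% in all), so that a call in itself was common, and 94.5% of genes had a smaller log2 change than FGF2.

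FGFR3, a receptor known for its restraint of bone growth, was the scarcest member. It was at 19.4, 20.4 and 16.6 CPM in control and at 22.7, 25.6 and 29.1 CPM in knockdown at 0 h. The groups did not overlap, but the lowest knockdown library was close to the highest control library. The log2 change was 0.46 ± 0.104 (adjusted p = 0.00077) and 0.54 ± 0.095 without the library that stands apart.

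FGFR1, the main receptor for FGF2 in many cell types, was at 467, 478 and 455 CPM in control and at 348, 405 and 418 CPM in knockdown at 0 h, without overlap. Its log2 change was -0.26 ± 0.057 (adjusted p = 0.000538), and -0.19 (adjusted p = 0.000517) without the library that stands apart. It was not called when the libraries at 0 h were fitted alone (-0.21, adjusted p = 0.0665). FGFR2, whose splice forms bind different ligands, lay at 115, 115 and 119 CPM in control and at 94.7, 93.0 and 97.4 CPM in knockdown, a change of -0.29 ± 0.05 (adjusted p = 2.85e-05) that was the same to 2 decimals without that library (-0.29, adjusted p = 6.18e-06). The libraries of each group were close together for FGFR2, and the groups were well apart. FGFR4, the receptor of the liver for FGF19, was at 57.3, 66.1 and 50.1 CPM in control and at 33.8, 46.2 and 53.5 CPM in knockdown, so its groups overlapped. Its log2 change of -0.38 ± 0.112 was called (adjusted p = 0.00695), but it was -0.27 (adjusted p = 0.0545) without replicate 2 of the control, -0.22 (adjusted p = 0.0212) without replicate 1 of the knockdown, and -0.33 (adjusted p = 0.125) when the libraries at 0 h were fitted alone.

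During the block the genotypes drew further apart for 3 of the members. FGF2 in control fell to 79.6, 77.9 and 77.8 CPM at 1.5 h and to 29.96, 30.3 and 29.2 CPM at 3.5 h. In knockdown it was at 255, 242 and 260 CPM at 1.5 h and still at 205, 205 and 215 CPM at 3.5 h. The difference between genotypes was 1.69 ± 0.083 at 1.5 h (adjusted p = 4.59e-14) and 2.80 ± 0.091 at 3.5 h (6.98-fold, adjusted p = 1.57e-17), the latter above that of 98.5% of genes. Every knockdown library stood above every control library at each time.

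FGFR3 in control was at 14.1, 14.5 and 17.8 CPM at 1.5 h and at 6.41, 8.28 and 7.84 CPM at 3.5 h. In knockdown it was at 33.0, 31.5 and 30.02 CPM at 1.5 h and at 33.5, 30.4 and 29.7 CPM at 3.5 h. The difference was 1.03 ± 0.106 at 1.5 h (adjusted p = 1.84e-08) and 2.05 ± 0.12 at 3.5 h (adjusted p = 6.26e-13). Relative to the typical transcript, FGFR3 thus went down in control cells while in knockdown cells its late levels lay at or above those at 0 h.

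FGFR4 took the opposite course. In control it went from the values at 0 h to 64.4, 61.4 and 69.97 CPM at 1.5 h and 120, 129 and 133 CPM at 3.5 h, whereas in knockdown it was at 48.0, 50.3 and 46.8 CPM and then at 63.9, 60.8 and 57.7 CPM. The groups did not overlap at either time. The difference was -0.43 ± 0.112 at 1.5 h (adjusted p = 0.00218) and -1.07 ± 0.108 at 3.5 h (adjusted p = 9.76e-09), and 3.66% of genes had a lower value at 3.5 h.

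FGFR2 changed sides. At 1.5 h it was at 103, 100 and 103 CPM in control and at 94.5, 89.8 and 92.3 CPM in knockdown, a difference of -0.15 ± 0.05 (adjusted p = 0.0146) that was not called without replicate 2 of the knockdown at 1.5 h (-0.14, adjusted p = 0.0581) or with no filter on low counts (adjusted p = 0.106). At 3.5 h it was at 56.4, 59.3 and 55.7 CPM in control and at 89.0, 90.5 and 91.0 CPM in knockdown, a difference of 0.66 ± 0.052 (adjusted p = 1.39e-10).

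FGFR1 stayed nearly level on this scale, between 440 and 489 CPM in the control libraries and between 348 and 441 CPM in the knockdown libraries over all times. Its difference was -0.16 ± 0.057 at 1.5 h (adjusted p = 0.0212) and -0.12 ± 0.057 at 3.5 h, where it was not called (adjusted p = 0.0733). At both times whether FGFR1 was called turned on 1 library. At 3.5 h it also turned on the model, with calls from DESeq2 size factors (-0.17, adjusted p = 0.0121) and from the compared groups only (-0.16, adjusted p = 3.83e-05). With 1 library left out, the adjusted p at 1.5 h was 0.0661 without replicate 3 of the control and 0.0579 without replicate 3 of the knockdown. At 3.5 h it was 0.039 without replicate 1 of the control. Among all genes, 28.4% were called higher and 26.2% lower at 1.5 h (54.6% in all), and 35% higher and 26.4% lower at 3.5 h (61.4% in all).

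**Figure D1:**
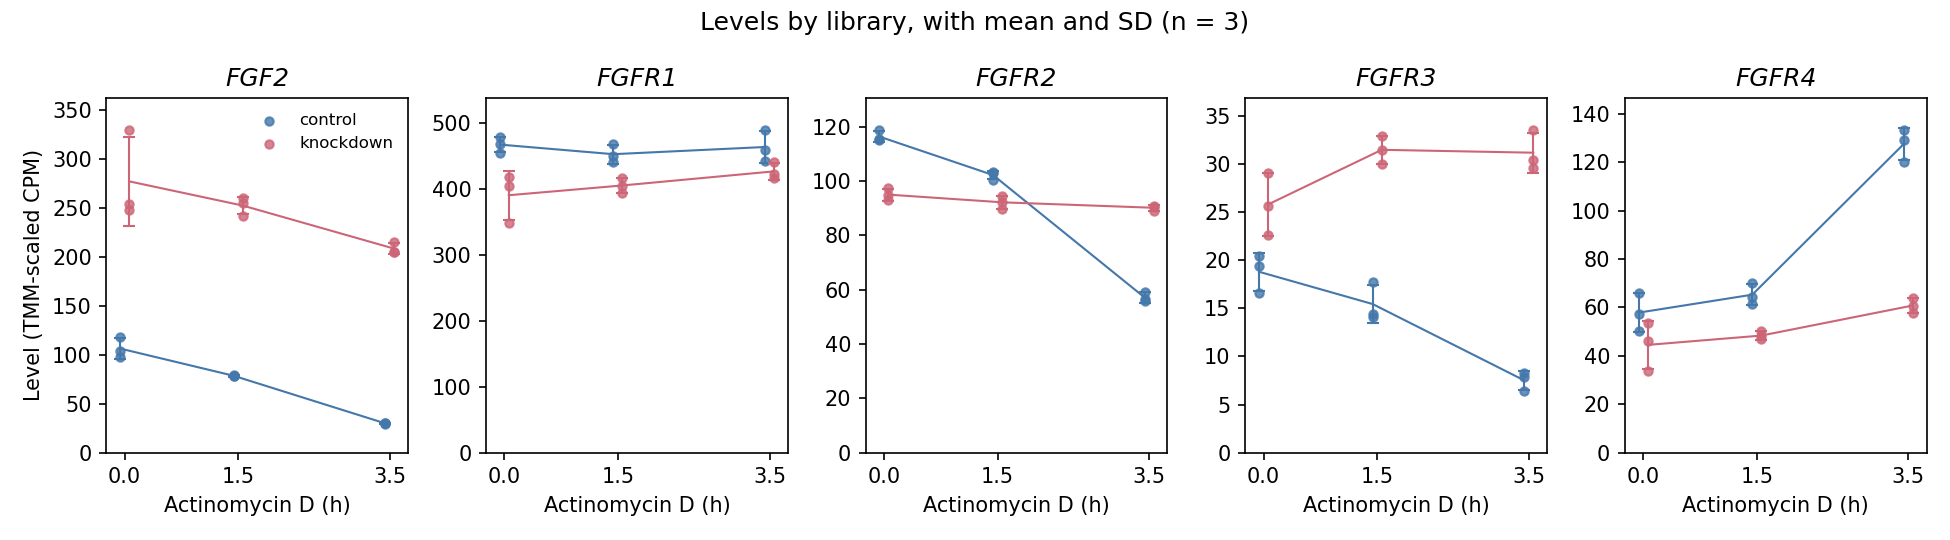
Level of each gene (TMM-scaled CPM, linear axis from 0) against hours of actinomycin D. Points are libraries, lines join means and bars are SDs over 3 libraries, with control in blue and knockdown in red. At 3.5 h FGF2 was at 29.8 CPM in control and 208 CPM in knockdown on average, while FGFR4 was at 128 and 60.8 CPM.

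These differences are relative to the typical transcript, and the choice of scale matters. With scaling to the summed ERCC counts the median of all genes moved from -0.04 to -0.71 at 0 h, from 0.03 to -0.52 at 1.5 h and from 0.08 to -0.98 at 3.5 h. FGF2 remained higher in knockdown on that scale, by 0.74 ± 0.196 at 0 h (adjusted p = 0.000424), 1.15 ± 0.198 at 1.5 h and 1.74 ± 0.204 at 3.5 h. FGFR3 turned to -0.23 ± 0.204 at 0 h (adjusted p = 0.304), which is above the median gene, and was at 0.48 ± 0.205 (adjusted p = 0.0337) and 0.99 ± 0.215 (adjusted p = 1.01e-05) later. FGFR2 at 3.5 h turned to -0.41 ± 0.198 (adjusted p = 0.0503). FGFR1 was lower at each time (-0.94, -0.70 and -1.18), as was FGFR4 (-1.08, -0.98 and -2.13), and of these only FGFR4 at 3.5 h was more than 1 below the median gene.

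**Figure D2:**
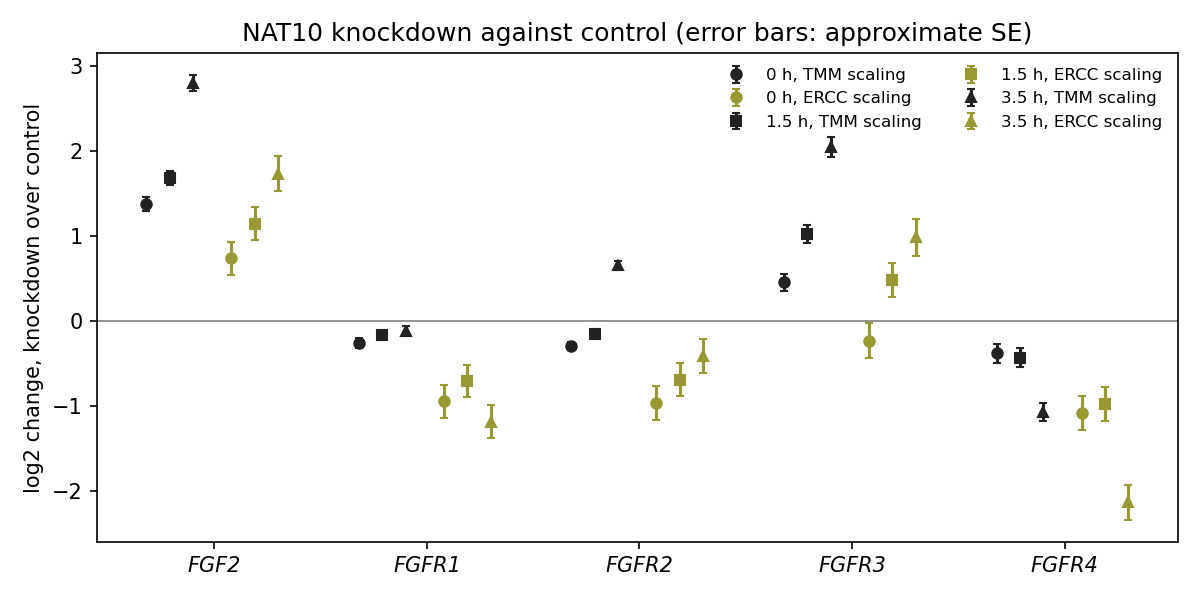
Log2 change of knockdown over control for each gene at 0 h (circles), 1.5 h (squares) and 3.5 h (triangles), with TMM scaling in black and ERCC scaling in olive. Bars are approximate SEs. FGF2 is above 0 on both scales at every time, while FGFR3 at 0 h and FGFR2 at 3.5 h change sign between the scales.

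Loss of transcript during the block was read on the ERCC scale, as the level left against the genotype's own 0 h mean. In control cells FGF2 was lost fastest among the members, followed by FGFR3 and FGFR2, then FGFR1, while FGFR4 showed no net loss. FGF2 was at 49.5%, 44.1% and 46.0% of its 0 h level in control at 1.5 h and 11%, 15.2% and 12.3% at 3.5 h, a log2 change of -2.96 ± 0.213 by 3.5 h (adjusted p = 2.98e-42). In knockdown it was at 64.2%, 49.6% and 71.6% at 1.5 h and at 27.1%, 27.3% and 22.4% at 3.5 h (-1.96 ± 0.202, adjusted p = 2.60e-21). The genotypes did not overlap at either time, though at 1.5 h the highest control library (49.5%) and the lowest knockdown library (49.6%) nearly touched. For every member such percentages leave out the spread of the 0 h libraries. For FGF2 these lay at 77.3% to 117% of their mean in control and at 76.0% to 141% in knockdown. The knockdown loss by 1.5 h (-0.69, adjusted p = 0.00321) was not called without replicate 1 of the knockdown at 0 h (-0.36, adjusted p = 0.165) or without replicate 2 at 1.5 h (-0.56, adjusted p = 0.0636).

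FGFR3 was at 49.7%, 46.3% and 59.4% in control at 1.5 h and at 13.3%, 23.6% and 18.7% at 3.5 h. In knockdown it was at 92.2%, 71.7% and 91.9% at 1.5 h, a change of -0.23 that was not called (adjusted p = 0.297), and at 49.2%, 45.05% and 34.4% at 3.5 h. By 3.5 h the log2 change was -2.44 ± 0.222 in control and -1.22 ± 0.204 in knockdown, again without overlap of the libraries. FGFR2 left 19.0%, 27.3% and 21.4% in control at 3.5 h (-2.15 ± 0.205) and 35.0%, 35.9% and 28.3% in knockdown (-1.60 ± 0.201), where the groups were separate but close.

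FGFR1 left 37.0%, 52.7% and 46.9% in control at 3.5 h (-1.13 ± 0.195) and 42.7%, 41.3% and 31.8% in knockdown (-1.37 ± 0.196), and its groups overlapped. These values lay near the median gene, which changed by -1.14 in control and by -1.47 in knockdown. The knockdown losses by 1.5 h were called for FGFR1 (-0.47, adjusted p = 0.0375) and FGFR2 (-0.58, adjusted p = 0.0144), and both calls rested on single libraries. FGFR1 was not called without replicate 1 or 2 of the knockdown at 0 h or without replicate 1 or 2 at 1.5 h (-0.40, -0.49, -0.49 and -0.38 in turn), nor FGFR2 without replicate 1 at 0 h (-0.42) or replicate 2 at 1.5 h (-0.45).

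FGFR4 was at 74.0%, 64.3% and 76.6% in control at 1.5 h and at 81.7%, 121% and 104% at 3.5 h, a log2 change of 0.03 ± 0.197 (adjusted p = 0.895) with a 95% interval of -0.36 to 0.41. The sign of that value turned without replicate 3 of the control at 0 h (-0.09) or replicate 2 at 3.5 h (-0.11). Its dip at 1.5 h (-0.48, adjusted p = 0.0244) was not called without replicate 1 of the control at 0 h (-0.33, adjusted p = 0.165) or replicate 2 at 1.5 h (-0.41, adjusted p = 0.111). In knockdown FGFR4 was at 78.9%, 67.3% and 84.2% at 1.5 h (adjusted p = 0.0883) and at 55.1%, 52.9% and 39.3% at 3.5 h (-1.03 ± 0.2, adjusted p = 3.97e-07), so the genotypes were apart at 3.5 h and overlapped at 1.5 h.

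Against all genes, 74.6% were called lower and 0.0119% higher by 1.5 h in control, and 81.1% lower and 0.591% higher by 3.5 h (81.7% in all). In knockdown, 47.4% were called lower and 0.0358% higher by 1.5 h, and 97.3% lower and 0% higher by 3.5 h. A called loss is therefore shared with most genes. The control change of FGF2 by 3.5 h was lower than that of all but 4.45% of genes, that of FGFR4 was above 95.9%, and that of FGFR1 was above 50.3%. With TMM scaling, which removes the loss common to most transcripts, the control change by 3.5 h was -1.83 for FGF2, -1.32 for FGFR3, -1.03 for FGFR2, -0.01 for FGFR1 and 1.14 for FGFR4. In knockdown it was -0.41, 0.27, -0.08, 0.13 and 0.45 in the same order, so that FGFR1, FGFR3 and FGFR4 changed sign between the scales.

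**Figure D3:**
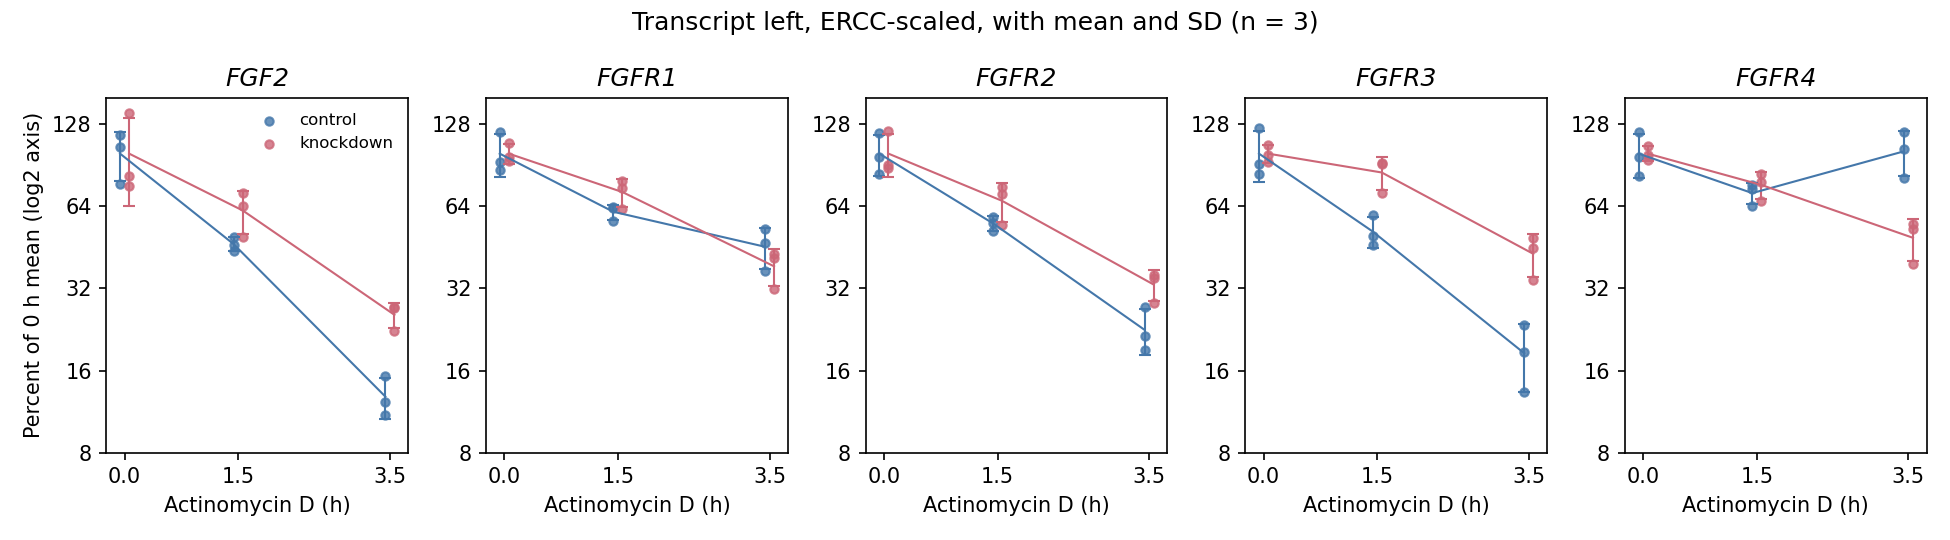
Percent of each transcript left, scaled to ERCC counts and as a share of the genotype's own 0 h mean (log2 axis), against hours of actinomycin D. Points are libraries, lines join means and bars are SDs over 3 libraries. At 3.5 h FGF2 and FGFR3 lie higher in knockdown (25.6% and 42.9%) than in control (12.8% and 18.5%), and FGFR4 lies lower (49.1% against 102%).

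The rate of loss, fitted as a slope of log2 level on hours through all 3 times, was tested between genotypes for each gene. FGF2 had a slope of -0.85 ± 0.061 per hour in control and -0.57 ± 0.059 in knockdown, a difference of 0.28 ± 0.082 (adjusted p = 0.00894). FGFR3 had slopes of -0.70 ± 0.066 and -0.36 ± 0.062, a difference of 0.34 ± 0.089 (adjusted p = 0.00338). Both were thus lost more slowly in knockdown cells, while the median gene had a difference of -0.10 and 2.4% of genes were called with slower loss. FGFR4 had slopes of 0.02 ± 0.054 and -0.30 ± 0.058, a difference of -0.32 ± 0.079 (adjusted p = 0.00229), in the direction called for 11% of genes (13.4% were called in all). Of all genes, 79.6% had a control slope called below 0 and 0.829% above it (80.4% in all), and 97.5% had a knockdown slope called below 0 and 0% above it. FGFR2 (0.16 ± 0.081, 95% interval -0.0022 to 0.316, adjusted p = 0.172) and FGFR1 (-0.08 ± 0.078, 95% interval -0.23 to 0.08, adjusted p = 0.518) were not called.

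The calls for FGF2, FGFR3 and FGFR4 kept their direction with TMM scaling (0.41, 0.45 and -0.21) and without the library that stands apart (0.36, 0.34 and -0.33), each still past the threshold. FGFR2 was also called with TMM scaling (0.28 ± 0.034, adjusted p = 3.07e-06), and FGFR1 turned to 0.04 (adjusted p = 0.236). Split by interval, no member was called for the first 1.5 h, where 4 of all genes were (0.0239% higher and 0% lower). For FGFR4 the difference fell in the later interval, at -1.15 ± 0.28 on the log2 scale from 1.5 to 3.5 h (adjusted p = 0.00135, with 18.7% of genes called lower and 1.12% higher there, 19.8% in all). The later interval gave 0.59 ± 0.279 for FGF2 (adjusted p = 0.109) and 0.50 ± 0.296 for FGFR3 (adjusted p = 0.198).

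The authors' deposited table gives 1 half-life per gene and genotype, with no error. For FGF2 the authors' deposited table lists 1.31 h in control and 1.90 h in knockdown, a log2 ratio of 0.53 that exceeds that of 96.4% of the genes listed. For FGFR3 the authors' deposited table lists 1.57 and 3.20 h, a log2 ratio of 1.03 above 99.3% of genes. For FGFR2 the authors' deposited table lists 1.74 and 2.28 h (log2 ratio 0.39) and for FGFR1 2.97 and 2.66 h (log2 ratio -0.16). For FGFR4 the authors' deposited table has no control value, and 3.43 h in knockdown. Medians over the genes in the authors' deposited table are 3.06 h in control, 2.57 h in knockdown and -0.24 for the log2 ratio. These values come from the same libraries as the slopes above and are not independent of them. From the slopes, half-lives in control and knockdown were 1.18 and 1.77 h for FGF2, 1.43 and 2.79 h for FGFR3, 1.62 and 2.18 h for FGFR2, and 3.14 and 2.53 h for FGFR1.

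Levels were compared between genes per kb of exonic length. In control at 0 h FGFR1 was highest at 33.7 ± 0.845 CPM per kb, followed by FGF2 at 15.7 ± 1.56, FGFR2 at 15.4 ± 0.269, FGFR4 at 11.98 ± 1.66 and FGFR3 at 3.88 ± 0.408. FGF2 and FGFR2 did not differ beyond their spread, and the other neighbours in that order did not overlap. Per kb of the longest coding transcript the control order was FGFR1 at 77.1, FGFR2 at 26.6, FGFR4 at 18.5, FGF2 at 15.7 and FGFR3 at 4.24, so that FGF2 came after FGFR2 and FGFR4 and overlapped with FGFR4. In knockdown at 0 h FGF2 came first at 40.9 ± 6.69 CPM per kb, ahead of FGFR1 at 28.2 ± 2.67, then FGFR2 at 12.5 ± 0.288, FGFR4 at 9.22 ± 2.06 and FGFR3 at 5.33 ± 0.668, with no overlap between neighbours. The first place in knockdown also depends on the length used: per kb of the longest coding transcript FGFR1 was at 64.4 and FGF2 at 40.9 in knockdown. The ratio of FGF2 to the summed receptors, per exonic kb, was 0.243 ± 0.034 in control and 0.753 ± 0.203 in knockdown at 0 h, and 0.0639 ± 0.00376 and 0.499 ± 0.0266 at 3.5 h. At 0 h it was 0.124 and 0.392 with the longest transcript, and 0.320 and 0.988 with the authors' gene factors, so the ratio is higher in knockdown with each length while its size is not fixed.

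The make-up of the receptor pool does not depend on scaling between libraries. FGFR1 made up 52.0% ± 0.848 of the summed receptor level in control and 51.0% ± 0.832 in knockdown at 0 h (SD, n = 3 each), with overlap. FGFR3 made up 5.50% to 6.22% in control and 9.39% to 10.0% in knockdown, the only receptor whose share did not overlap between genotypes at 0 h. At 3.5 h FGFR3 made up 2.24% ± 0.22 in control against 10.4% ± 0.374 in knockdown, FGFR2 10.9% ± 0.622 against 19.3% ± 0.793, and FGFR4 38.3% ± 0.309 against 20.4% ± 0.459. FGFR1 stayed close, at 48.5% ± 0.704 against 49.9% ± 0.129. At 1.5 h its share per exonic kb was lower in knockdown instead, at 52.0% ± 0.405 in control against 50.5% ± 0.59, without overlap. FGFR3 (5.06% in control against 11.2%) and FGFR4 (21.5% against 17.3%) did not overlap at 1.5 h either, while FGFR2 did. None of the 4 receptors overlapped between genotypes at 3.5 h, and each exact two-sided permutation test gave p = 0.1, the smallest that this test allows for 3 against 3, so it cannot pass 0.05 here. The 4 shares add up to the whole in each library, so a shift in 1 moves the others and they are not 4 separate results. How many other genes separate in this way was not counted, while 61.4% of all genes were called in level at 3.5 h. In control the share of FGFR4 went from 18.4% at 0 h to 38.3% at 3.5 h, whereas in knockdown it went from 16.5% to 20.4%. With other gene lengths the shares shift but each direction at 3.5 h is the same.

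**Figure D4:**
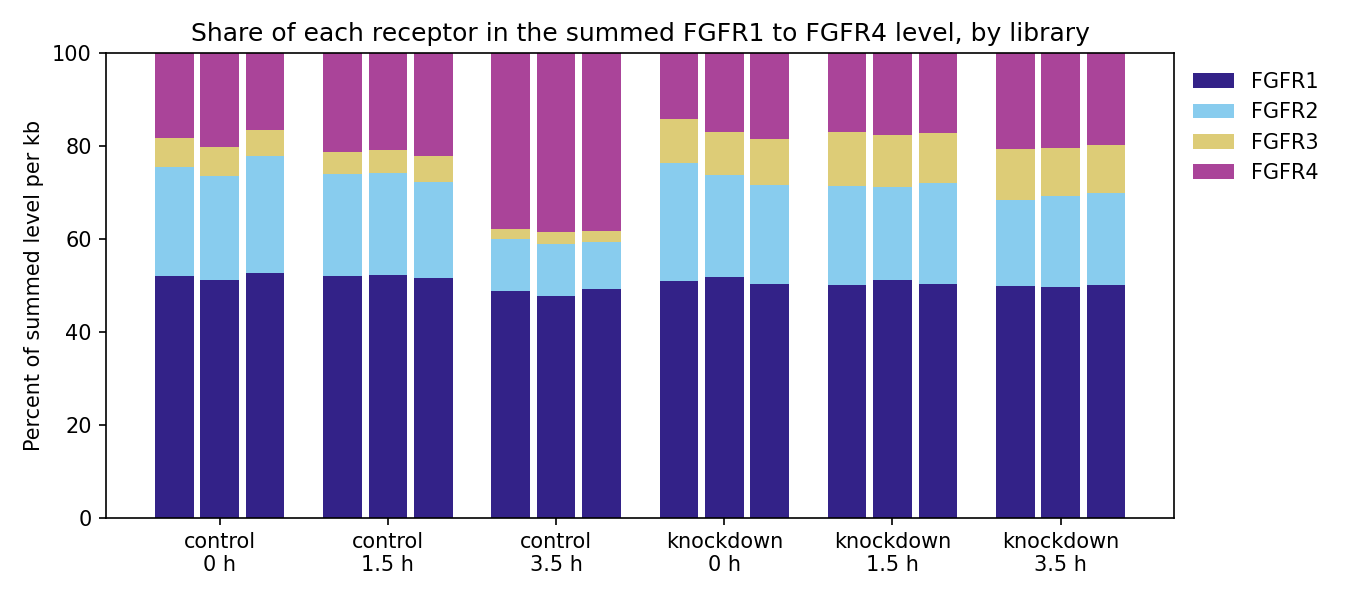
Share of each receptor in the summed level of FGFR1 to FGFR4 per exonic kb, 1 bar per library and 3 libraries per group. The FGFR4 segment reaches 38.3% in control at 3.5 h and 20.4% in knockdown, while the FGFR3 segment is 2.24% and 10.4%.

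Across the 18 libraries the members did not follow 1 pattern. The log2 levels of FGF2 and FGFR3 ran together (Pearson r = 0.95, Spearman rho = 0.79) and those of FGF2 and FGFR4 ran in opposite directions (r = -0.91, rho = -0.92). These points fall in 6 groups that share genotype and time, so the coefficients only describe the group pattern. Among 10627 genes of at least 5 CPM, those most like FGF2 were PTPN14, PLIN2 and LGALSL (r of 0.99 each), and those most like FGFR4 were AKR1A1, SELENON and PTK7 (r of 0.99 each). FGFR3 was most like the pseudogene SDHAP3, whose reads can be shared with its parent gene family, SLC3A2 and COL5A3 (r of 0.99, 0.97 and 0.97). FGFR2 was most like MLX, TOE1 and SURF6 (r of 0.98 each) and FGFR1 most like POLE, ALDH16A1 and PLCB3 (r of 0.97, 0.97 and 0.96).

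The genes that work around FGF2 and its receptors were taken in lists by role, which were chosen with earlier results of these data known. The counts at 0 h in every list below stand beside 23.8% of all genes called higher and 28.3% lower (52.1% in all). A count near these shares is not particular to its list. Beside the counts at 3.5 h that follow, 35% of all genes were called higher and 26.4% lower, and with ERCC scaling 789 of 16760 genes were called higher and 12015 lower. For the counts at 0 h with ERCC scaling, 936 of 16760 genes were called higher and 10748 lower, so most genes were called lower on that scale. Without the library that stands apart, 4285 of 17067 genes were called higher and 5295 lower at 0 h. Among the feedback and target genes of FGF signalling 8 of 13 were called lower and none higher in knockdown at 0 h, with a median log2 change of -0.39 against -0.04 over all genes (background 28.3% lower). Without the library that stands apart 10 were called lower and 0 higher, and with ERCC scaling 12 and 0. DUSP6, the phosphatase that inactivates ERK, went from 15.7 ± 1.96 to 4.60 ± 0.38 CPM, a change of -1.77 ± 0.113 (adjusted p = 5.85e-12). ETV1, an ETS factor induced by FGF, went from 129 ± 10.2 to 69.7 ± 9.29 CPM (-0.89 ± 0.078, adjusted p = 1.38e-09), and the inhibitor SPRY4 from 59.6 ± 2.6 to 32.02 ± 3.2 CPM (-0.90 ± 0.079, adjusted p = 1.61e-09). ETV4, ETV5, DUSP4, DUSP5 and IL17RD were the others called, and SPRY1, SPRY2, SPRED1, SPRED2 and SPRED3 were not. At 1.5 h 5 were called lower and 3 higher (median -0.058, against 0.026 over all genes), and 7 and 0 with ERCC scaling. Over all genes 26.2% were called lower and 28.4% higher at 1.5 h, and with ERCC scaling 8331 and 1375 of 16760. At 3.5 h 7 were called lower and 3 higher (11 and 0 with ERCC scaling). DUSP5, a nuclear phosphatase of ERK, was among the 3: it was left at 3.62% in control and 11.9% in knockdown, and its slope difference was 0.55 ± 0.114 (adjusted p = 0.000127). It was the 1 gene of this list called with slower loss in knockdown, while 2 were called with faster loss (list median -0.02 per hour). Over all genes 2.4% were called with slower loss and 11% with faster loss. SPRY4 and DUSP5 are named here because of their values.

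Of 21 other FGF genes only 8 had enough counts to be tested, and at 0 h 3 were called higher and 2 lower (median 0.22, and 1 and 3 with ERCC scaling). FGF1, a ligand of all the receptors, rose from 15 counts summed over control to 126 over knockdown (2.89 ± 0.366, adjusted p = 5.38e-07). FGF13, an intracellular member of the family that is not secreted, went from 37.3 ± 4.5 to 52.4 ± 6.68 CPM (0.49 ± 0.083, adjusted p = 2.94e-05), a direction that turned with ERCC scaling (-0.17, adjusted p = 0.448). FGF17 was the other riser, from 8 to 32 counts, which ERCC scaling did not call (adjusted p = 0.068). FGF19, the hormone-like ligand of FGFR4, fell from 148 to 79 counts (-1.048 ± 0.207, adjusted p = 0.00017), and FGF12 fell by 0.40 ± 0.103. FGF1, FGF17 and FGF19 were scarce beside FGF2, with group means of at most 3.22 CPM at 0 h. FGF1 and FGF17 passed the filter on low counts only through knockdown libraries, so that their being higher there is partly set by the filter. At 3.5 h 2 were called higher and 2 lower (2 and 5 with ERCC scaling).

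Among 12 co-receptors and binding partners, 9 were tested, and 3 were called higher and 5 lower at 0 h (median -0.34; 3 and 4 without the library that stands apart, 1 and 5 with ERCC scaling). CDH2, N-cadherin, which can bind FGFR1, went from 105 ± 13.6 to 191 ± 6.65 CPM (0.86 ± 0.066, adjusted p = 1.54e-10), though it was not called with ERCC scaling (0.20, adjusted p = 0.35). FGFRL1, a receptor-like protein without a kinase, went from 20.3 ± 2.74 to 39.6 ± 8.07 CPM (0.97 ± 0.131, not called with ERCC scaling, 0.26). FGFBP1, a carrier of secreted FGFs, was at 0 counts in every control library and at 30 in knockdown, at least 9.04-fold higher against a floor of 3 counts over the group, and the list's median was the same with that gene at its bound. It too passed the filter only through knockdown libraries. ANOS1, a secreted modulator of FGFR1, went from 152 ± 8.97 to 94.0 ± 13 CPM (-0.69 ± 0.071, adjusted p = 1.79e-08). KLB, FGFBP3, FLRT1 and NCAM1 were the other 4 called lower, at changes of -0.87, -0.34, -0.70 and -0.81. At 3.5 h 4 were called higher and 4 lower (0 and 5 with ERCC scaling).

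Heparan sulphate, which holds FGF2 on its receptors, was represented by its core proteins and its enzymes. Of 11 tested core proteins 5 were called higher and 3 lower at 0 h (median 0.22; 7 and 3 without the library that stands apart, 1 and 6 with ERCC scaling). The glypican GPC6 went from 107 ± 3.74 to 41.8 ± 5.46 CPM (-1.36 ± 0.075, adjusted p = 4.61e-13) and the glypican GPC3 from 35.7 ± 3.3 to 77.3 ± 2.69 CPM (1.12 ± 0.067, adjusted p = 1.96e-12). Of 14 tested enzymes 4 were called higher and 5 lower (median -0.02; 4 and 4 without that library, 1 and 9 with ERCC scaling). SULF2, a sulphatase that trims 6-O sulphate from heparan sulphate outside the cell, went from 24.6 ± 1.34 to 126 ± 12 CPM (2.36 ± 0.081, adjusted p = 7.94e-17). EXTL2, a glycosyltransferase of the pathway, went from 96.4 ± 7.36 to 50.2 ± 6.23 CPM (-0.94 ± 0.078, adjusted p = 5.35e-10). At 3.5 h 6 core proteins were called higher and 5 lower (0 and 11 with ERCC scaling), and 5 enzymes higher and 4 lower (1 and 8 with ERCC scaling).

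Of 13 receptor adaptors 1 was called higher and 7 lower at 0 h (median -0.18; 1 and 9 without the library that stands apart, 0 and 11 with ERCC scaling). The adaptor SHC1 went from 461 ± 24.6 to 349 ± 39.9 CPM (-0.40 ± 0.062, adjusted p = 9.52e-06), and the 1 called higher was CBL, a ubiquitin ligase that removes active receptors (0.26 ± 0.054, adjusted p = 0.000277), which turned to -0.40 (adjusted p = 0.0564) with ERCC scaling. FRS2, the adaptor closest to the receptors, was not called. Of 16 genes of the RAS to ERK cascade 4 were called higher and 7 lower (median -0.01; 5 and 7 without that library, 0 and 13 with ERCC scaling). NF1, a RAS inhibitor, went from 114 ± 6.17 to 85.7 ± 4.97 CPM (-0.42 ± 0.056, adjusted p = 1.2e-06). At 3.5 h 6 adaptors were called higher and 4 lower (0 and 10 with ERCC scaling), and 6 genes of the cascade higher and 5 lower (0 and 14 with ERCC scaling).

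Of 10 tested PI3K and AKT genes 2 were called higher and 2 lower at 0 h (median 0.04, and 0 and 7 with ERCC scaling). PIK3R1, the main regulatory subunit of PI3K, went from 11.1 ± 0.634 to 3.48 ± 0.87 CPM (-1.67 ± 0.149, adjusted p = 2.02e-09), and PIK3CD, a catalytic subunit, from 15.5 ± 0.767 to 31.6 ± 4.57 CPM (1.02 ± 0.095, adjusted p = 3.64e-09). PIK3R3 (0.46) and AKT1 (-0.30) were the other two called, and with ERCC scaling neither PIK3CD (0.33) nor PIK3R3 (-0.19) was. At 3.5 h 5 genes of this list were called higher and 3 lower (0 and 9 with ERCC scaling).

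Other receptor tyrosine kinases moved in both directions, with 13 of 24 called higher and 9 lower at 0 h (median 0.26; 12 and 9 without the library that stands apart, 2 and 12 with ERCC scaling). Over all genes 23.8% were called higher and 28.3% lower at 0 h. AXL, the receptor for GAS6, went from 39.2 ± 0.849 to 181 ± 10.4 CPM (2.21 ± 0.06, adjusted p = 1.83e-18) and EPHA2, an ephrin receptor, from 22.1 ± 1.98 to 50.8 ± 6.22 CPM (1.20 ± 0.092, adjusted p = 1.60e-10). These were the 2 called higher with ERCC scaling as well. At 3.5 h 14 were called higher and 7 lower, and with ERCC scaling 2 higher and 18 lower. The change of FGFR3 at 0 h was smaller than both, while that of FGF2 lay between them.

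**Figure D5:**
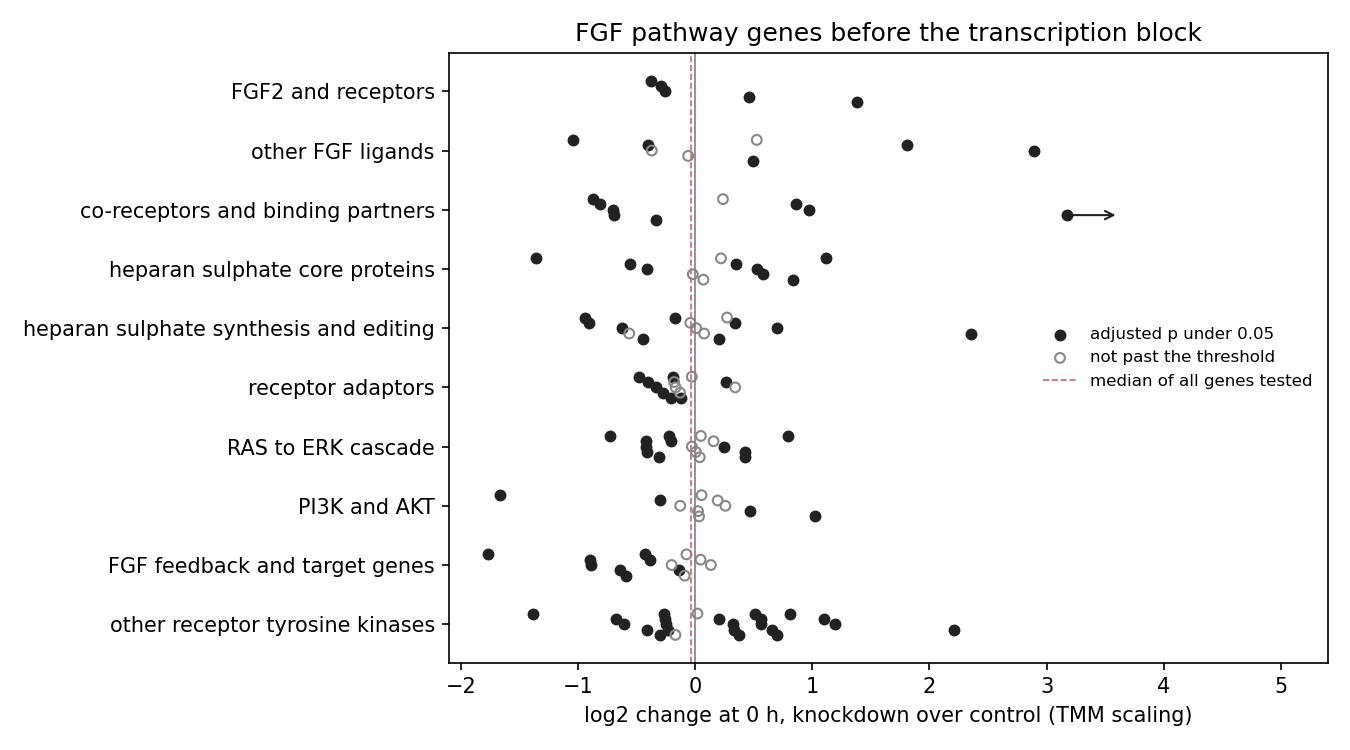
Log2 change at 0 h (TMM scaling) for each tested gene of the FGF pathway lists, 1 point per gene. Filled points passed an adjusted p of 0.05, open points did not, the dashed line is the median of all genes tested, and the arrow marks FGFBP1, drawn at its lower bound because its control libraries hold 0 counts. The feedback and target genes hold 8 filled points, all below 0.

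Of 6 regulators of receptor splicing, 3 were called lower and none higher at 0 h (median -0.15), and 6 were called lower with ERCC scaling. RBM47 (-0.56 ± 0.055, adjusted p = 8.53e-09), CELF1 (-0.22 ± 0.05, adjusted p = 0.000677) and PTBP1 (-0.14) were called, and ESRP1 and ESRP2, which favour the epithelial splice forms of FGFR2, were not. Splice forms were not measured, since the table counts whole genes. At 3.5 h 3 were called higher and 2 lower (0 and 6 with ERCC scaling). Near FGF2 on chromosome 4, NUDT6 was at 2.02 ± 0.227 and 2.01 ± 0.524 CPM at 0 h (-0.01, adjusted p = 0.967), while SPATA5 was called lower (-0.37 ± 0.121, adjusted p = 0.0123). SPRY1 and BBS12 (0.36, adjusted p = 0.226) were not called at 0 h, so the change of FGF2 was not shared by the 4 neighbours tested. At 3.5 h BBS12 was called higher and SPRY1 lower (0 neighbours higher and 3 lower with ERCC scaling).

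Markers of cell state also differed between the genotypes at 0 h, where 23.8% of all genes were called higher and 28.3% lower. Of 15 pluripotent stem cell markers 12 were called lower and 0 higher, with a summed level of 13816 to 14400 CPM in control and 11257 to 11735 CPM in knockdown. Of 10 tested fibroblast and stroma markers 6 were called higher and 3 lower, with 743 to 809 CPM in control and 1429 to 1884 CPM in knockdown, and FAP was at 0 in every library. Of 7 tested neural ectoderm markers 5 were called higher and 0 lower (537 to 674 CPM in control and 1195 to 1263 CPM in knockdown). Of 8 tested naive pluripotency markers 6 were called higher and 0 lower (21.5 to 22.4 CPM against 38.0 to 43.3 CPM). A scarce marker can pass the filter on low counts through knockdown libraries alone, so higher calls of scarce markers can be partly set by the filter. Mesoderm, endoderm and trophoblast markers summed to at most 4.46, 21.5 and 8.86 CPM in any library at 0 h. Only 2 of 7, 1 of 6 and 2 of 7 of these markers in turn could be tested. In each list 1 was called higher and none lower, which says little about the full lists. With ERCC scaling the counts higher and lower were 0 and 15 for pluripotent, 5 and 4 for fibroblast and stroma, 2 and 1 for neural ectoderm, and 5 and 0 for naive markers. Over all 16760 genes they were 936 and 10748 on that scale. Without the library that stands apart 8 of 9 tested naive markers were called higher. The part of these shifts in the levels of FGF2 and its receptors was not tested.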

How the data were processed

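Raw counts of reads for genes and ERCC transcripts were deposited (61860 genes, 92 ERCC transcripts, 18 libraries). Per the submitters' processing notes, the tools were featureCounts 2.0.3, SAMtools 1.12, HISAT2 2.2.1 and fastp 0.21.1, with build hg38. Neither annotation release nor strand setting is given in the sources used here. A second table deposited by the authors holds signal values, each the count times a gene factor and a library factor by its values (largest relative deviation 8.66e-15), with half-lives in hours and the log2 ratio of the deposited half-lives. The signal served only for the authors' gene factors, an alternative gene length.

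Counts were tested in 1 fit of all 18 libraries with the quasi-likelihood F test of edgeR 4.0.16 (R 4.3.3) after filterByExpr, with TMM scaling between genotypes and scaling to summed ERCC counts over time, and Benjamini-Hochberg adjustment over 16760 genes. The approximate SE is the change divided by the square root of F. The common biological coefficient of variation was 6.29% with TMM and 16.3% with ERCC scaling. Receptor shares were compared with exact permutation tests (scipy 1.17.1). The code was tested on simulated data. Coordinates, lengths and untranslated regions are from GENCODE v29; regions of like length are within 0.8 to 1.25 times a member's length.

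The members and lists were chosen with earlier results of these data known. Named were the 5 members, NAT10, the 2 genes with the smallest p at 0 h in each of 11 pathway lists, genes needed to account for a count of 5 or fewer, and the 3 genes most like each member; any other gene was named after its values were seen. An item that this rule would name is not reported here. There were 7 marker lists. Alternatives were the other scaling, DESeq2 1.42.0 (its size factors and Wald test), no filter, the compared groups only, a replicate block, other time models, other gene lengths and each library left out. List counts under the other scaling or without 1 library, and the longest transcript as a length, were added after seeing the data.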

Additional observations from a re-analysis of the deposited data

Results flagged for a closer look

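FGF2, FGFR3 and FGFR4 were marked because the change of their levels over the block differed between control and knockdown cells by the test of the difference itself. The slope difference, knockdown minus control, was 0.28 log2 units per hour for FGF2 (adjusted p = 0.00894, edgeR's quasi-likelihood test), 0.34 for FGFR3 (adjusted p = 0.00338) and -0.32 for FGFR4 (adjusted p = 0.00229). With each library left out in turn the value lay between 0.24 and 0.36 for FGF2, between 0.28 and 0.39 for FGFR3 and between -0.37 and -0.26 for FGFR4, and each stayed past the threshold.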

How the results depend on the processing

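Of 750 alternative values of 60 results, 671 kept their direction and side of the threshold (or, for counts and shares, their size), and 432 of the 750 left out 1 library, of which 407 did so. The cause of the changes below was not tested. Values are log2 changes in knockdown over control or over time.

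ERCC scaling between genotypes gave -0.23 for FGFR3 at 0 h, and -0.41 for FGFR2 and -1.18 for FGFR1 at 3.5 h. FGFR1 at 3.5 h was -0.17 with DESeq2 size factors or its Wald test. With the compared groups only, FGFR1 was -0.21 and FGFR4 -0.33 at 0 h, FGFR1 -0.16 at 3.5 h and -0.47 for knockdown by 1.5 h, where 4506 genes were called against 7947. With no filter, FGFR2 was -0.15 at 1.5 h, FGFR4 -0.48 for control by 1.5 h and FGFR1 -0.47 for knockdown by 1.5 h.

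TMM scaling over time gave, for control by 1.5 h, -0.046 for FGFR1, -0.28 for FGFR3 and 0.17 for FGFR4, and by 3.5 h -0.011 for FGFR1 and 1.14 for FGFR4. For knockdown by 1.5 h it gave -0.14 for FGF2, 0.054 for FGFR1, -0.044 for FGFR2, 0.29 for FGFR3 and 0.12 for FGFR4, and by 3.5 h 0.13 for FGFR1, -0.076 for FGFR2, 0.27 for FGFR3 and 0.45 for FGFR4. Genes called were then 4436 (control by 1.5 h, against 12503), 2849 and 8027 (knockdown by 1.5 and 3.5 h, against 7947 and 16311) and 5302 for the slope difference (3439 higher and 1863 lower, against 403 and 1838), with FGFR1 at 0.039 and FGFR2 at 0.28 per hour. Over 0 to 1.5 h alone 4 genes were called and the difference per hour was 0.27 for FGF2, 0.16 for FGFR1, 0.48 for FGFR3 and 0.065 for FGFR4. Over 1.5 to 3.5 h it was 0.29 for FGF2 and 0.25 for FGFR3.

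With the authors' gene factors, shares differed by 4.54 (FGFR1) and 4.62 (FGFR2) percentage points at 3.5 h, by 4.71, 7.88 and 10.6 for FGFR3 over the 3 times, and by -5.62 and -19.7 for FGFR4 at 1.5 and 3.5 h. With the longest transcript they differed by -0.51 and 1.998 for FGFR1 at 1.5 and 3.5 h, by 2.12, 3.58 and 4.70 for FGFR3, and by -3.05 and -14.4 for FGFR4.

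Leaving out 1 library gave -0.53 to -0.22 for FGFR4 at 0 h, -0.19 to -0.14 for FGFR1 and -0.17 to -0.14 for FGFR2 at 1.5 h, and -0.15 to -0.077 for FGFR1 at 3.5 h. For control it gave -0.60 to -0.33 for FGFR4 by 1.5 h and -0.11 to 0.18 by 3.5 h (-0.09 and -0.11 turned). For knockdown by 1.5 h it gave -0.86 to -0.36 for FGF2, -0.54 to -0.38 for FGFR1 and -0.67 to -0.42 for FGFR2. Genes called were 7097 to 13509 for control by 1.5 h (7097 without control 0 h replicate 1), 2069 to 10160 for knockdown by 1.5 h (2954 without knockdown 0 h replicate 1, 5173 and 2069 without replicates 1 and 2 at 1.5 h) and 1112 to 4676 for the slope difference (4676 without control 0 h replicate 1, 1112 and 1211 without control 3.5 h replicates 2 and 3, 1362 without knockdown 3.5 h replicate 3).

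The replicate numbers did not pair the libraries (r above 0.1 in 18 of 45 same-number pairs). A replicate block gave 8702 calls at 0 h against 8728, 2141 against 2241 for the slope difference, and 0.28 for the slope difference of FGF2, and changed no call of the 5 genes. FGFR3 had the fewest counts of the 5, with 88 to 525 per library. Between genotypes with TMM scaling, its approximate SE was the largest of the 5 at 3.5 h (0.12). At 0 h and 1.5 h that of FGFR4 was the largest (0.112 at each).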
